A study of Mus musculus with 8 samples.

Results

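The insulin-like growth factor (IGF) and insulin signalling genes followed here were 10 genes chosen by name: the ligands Igf1 and Igf2, the receptors Igf1r, Igf2r and Insr, the docking proteins Irs1 and Irs2, and the IGF binding proteins Igfbp3, Igfbp5 and Igfbp7. All 10 were found among the 19945 genes of a single-cell RNA-seq count table of mouse islets. The rule named them by function and used no measured value, although earlier results of these data were known when it was set. The question put to the data was which cells of the islet preparation make the ligands and binding proteins, which carry the receptors, and how the levels differed after inhibition of focal adhesion kinase.

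The cells came from islets of wild-type mice treated with vehicle or with FAKi, an inhibitor of focal adhesion kinase (FAK), the kinase that relays integrin signals from the extracellular matrix. The study's methods name the inhibitor as PF-562271, given by oral gavage at 50 mg/kg in 2 doses a day for 3 weeks, with mice aged 6 to 12 weeks at the start of experiments. Islets were isolated and handpicked 10 days after the last dose, and those of 5 mice were pooled for each treatment. The strain of these mice is not given in the sources used here. The table held 3776 cells with 59514118 unique molecular identifiers (UMIs, one per captured transcript) from the vehicle library and 3183 cells with 57836783 UMIs from the FAKi library. The 8 deposited samples were 4 sequencing lanes of each library, so there was 1 library for each treatment and no replicate. All differences below therefore compare those 2 libraries, intervals cover counting error only, and no test between treatments was possible.

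Cell classes and clusters were those the study's authors deposited. In 23 of 24 combinations of class and library the summed marker genes of the class were higher than in any class of another kind. The exception was the FAKi T cells (28 cells), which with the FAKi B cells (9 cells) fell under the 30 cells asked of a class for comparison. The genes leading cluster 1 of the β-cells were immunoglobulin and haemoglobin genes, and cluster 8 of the δ-cells led with Ppy and Pyy, hormones of other islet cells. For that reason β-cells and δ-cells were compared between libraries by cluster: clusters 0, 1 and 10 for β-cells, and clusters 6 and 8 for δ-cells. Median depth was 30792.5 UMIs in vehicle and 30427.5 in FAKi β-cells, against 5752 and 4836 in endothelial cells, so genes at low level were seen far more readily in β-cells. Only 4 cell barcodes occurred in both libraries.

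IGF1 and IGF2 are secreted peptides related to insulin that act through the receptor kinase encoded by Igf1r and, with insulin, through that encoded by Insr. Both kinases phosphorylate the insulin receptor substrates Irs1 and Irs2, which recruit phosphoinositide 3-kinase and so activate AKT. The protein of Igf2r is no kinase but takes up IGF2 for degradation, and also carries lysosomal enzymes. Binding proteins hold IGFs in the circulation and in the matrix, whereas Igfbp7 encodes a related protein with low affinity for IGFs. The genes lie apart in the genome, in GENCODE M21 on GRCm38: Igf1 at chr10:87858265-87937042 and Igf1r at chr7:67952827-68233668 on the plus strand. On the minus strand are Igf2 at chr7:142650766-142666816, Igf2r at chr17:12682406-12769664, Insr at chr8:3122061-3279617, Irs1 at chr1:82233101-82291416, Irs2 at chr8:10984681-11008458, Igfbp3 at chr11:7206086-7213923, Igfbp5 at chr1:72857932-72874884 and Igfbp7 at chr5:77349240-77408041. In mice, Irs2 is needed to maintain β-cell mass, and its transcription is known to respond to cAMP and to FOXO factors.

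The promoters of the docking proteins are shown because Irs2 had the lowest ratio between the libraries among the genes of the group with at least 100 UMIs in β-cells, and Irs1 is its closest relative. Each line gives the 250 bases before the RefSeq gene start on the minus strand of GRCm38, 5′ to 3′, from the RefSeq promoter table (build GRCm38.p6), with the palindrome CACGTG, an E-box, in capitals. Irs1 lies at chr1:82291440-82291689 and Irs2 at chr8:11008930-11009179.
Irs1: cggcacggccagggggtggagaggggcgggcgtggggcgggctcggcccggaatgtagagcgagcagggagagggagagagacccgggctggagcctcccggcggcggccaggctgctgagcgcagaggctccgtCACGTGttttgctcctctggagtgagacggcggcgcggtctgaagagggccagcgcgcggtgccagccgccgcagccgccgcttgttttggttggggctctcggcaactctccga
Irs2: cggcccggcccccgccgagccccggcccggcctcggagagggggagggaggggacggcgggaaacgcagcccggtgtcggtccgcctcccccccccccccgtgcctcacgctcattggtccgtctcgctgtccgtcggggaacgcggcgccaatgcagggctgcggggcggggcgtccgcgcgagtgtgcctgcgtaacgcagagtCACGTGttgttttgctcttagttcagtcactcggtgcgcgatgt
The E-box began 115 bases before the RefSeq start of Irs1 and 44 bases before that of Irs2. RefSeq places these starts 23 and 471 bases upstream of those in GENCODE M21, from which the E-boxes lie 138 and 515 bases away. Of 32851 windows in the RefSeq table, each holding 250 bases before and 50 after a gene start, 7.15% held CACGTG, and 3 of the 9 genes of the group with a window did (Irs1, Irs2 and Igf2r). The longest stretches that the Irs1 and Irs2 windows shared were 10 bases, GTCACGTGTT and TGTTTTGCTC, and each was found in 25 of the 32851 windows. The full cAMP response element TGACGTCA was in no window of the group against 1.79% of all windows, its core TGACG (contained in the full element) in those of 3 genes against 20.8%, and the FOXO motif TGTTTAC in none against 3.65%. All motifs were sought on both strands. These matches describe letters only and were chosen after the sequences had been seen. Insr had no window.

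**Figure D1:**
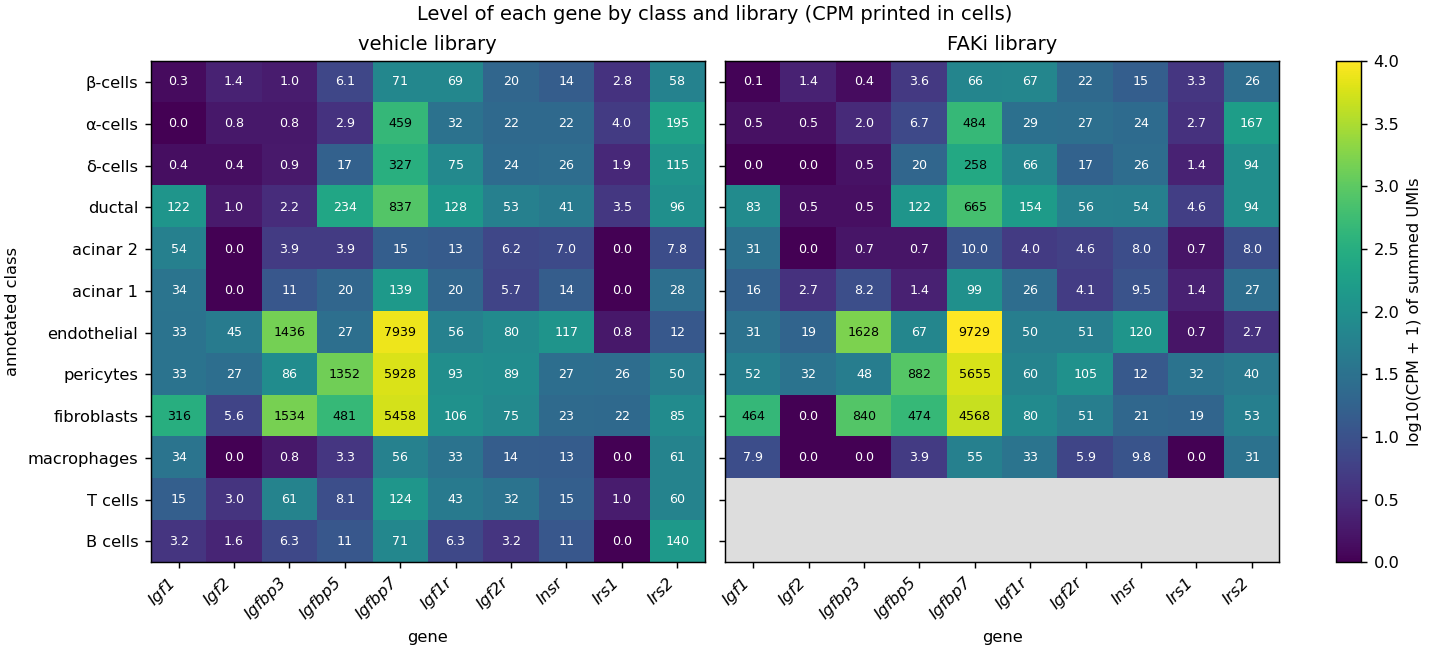
Level of each gene (columns) in each annotated class (rows) as CPM of summed UMIs in the vehicle (left) and FAKi (right) library, with colour on a log10(CPM + 1) scale. The highest levels of binding protein and ligand transcripts lie in the endothelial, pericyte and fibroblast rows, and the 2 FAKi classes under 30 cells are grey.

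The genes differed sharply in where they were transcribed. Levels are CPM, the summed UMIs of a gene in a class and library scaled to the same total of all UMIs. Hormone transcripts take a large part of that total in endocrine cells, so CPM of other genes are diluted there, most of all in β-cells, and levels with the 20 most abundant genes of the table left out of the totals are given where the reading changes. The class with the highest CPM was the same in both libraries for 8 of 10 genes: fibroblasts for Igf1, ductal cells for Igf1r (β-cells without the 20 most abundant genes), endothelial cells for Insr and Igfbp7, pericytes for Igf2r, Irs1 and Igfbp5, and α-cells for Irs2. The exceptions were Igf2 (endothelial cells in the vehicle and pericytes in the FAKi library, with overlapping intervals of these 2 classes in both) and Igfbp3 (fibroblasts, then endothelial cells).

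Igf1 encodes the growth factor best known as the mediator of growth hormone action. Its level was 316 CPM (95% Poisson interval 295–339) in vehicle and 464 CPM (410–522) in FAKi fibroblasts. Ductal cells followed with 122 CPM (114–131) and 83.3 CPM (71.6–96.4), and in both libraries the fibroblast interval lay wholly above the ductal one. In endocrine cells it was close to absent: 0 UMIs in 273 vehicle α-cells, 3 UMIs in 434 FAKi α-cells, 10 in 1076 vehicle β-cells and 3 in 1336 FAKi β-cells, and 2 and 0 in δ-cells. For the count of 0 in the vehicle α-cells the 95% Poisson interval reached up to 0.973 CPM. Vehicle fibroblasts and ductal cells held 42.8% and 41.0% of all Igf1 UMIs, and in the FAKi library these shares were 46.6% and 31.2%. Macrophages, a known source of IGF1 in many tissues, had 34.2 CPM from 41 UMIs in the vehicle library and 7.87 CPM from 4 UMIs in the FAKi library, and 5 vehicle cells held 50% or more of those 41 UMIs.

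Igf2, the fetal growth factor expressed from the paternal allele, was sparse, with 267 vehicle and 95 FAKi UMIs in all. In endothelial cells, 169 of 169 vehicle UMIs and 27 of 28 FAKi UMIs lay in cluster 11, which led with Ccl21a, Selp, Vwf and Ackr1. Cluster 3, which led with the capillary genes Esm1 and Gpihbp1, had 0 UMIs in 371 vehicle cells and 1 UMI in 229 FAKi cells. Within cluster 11 the level was 123 CPM in the vehicle and 103 CPM in the FAKi library. Few cells carried it: 50% or more of the 169 UMIs lay in 5 vehicle cells, and of the 27 UMIs in 4 FAKi cells. Pericytes had 27.4 CPM (16.9–41.9) and 32.2 CPM (13.9–63.5), from 21 and 8 UMIs. In β-cells Igf2 was at 1.44 and 1.38 CPM, yet they held 18% of vehicle and 55.8% of FAKi Igf2 UMIs. The β-cell clusters went opposite ways at these low counts, from 43 to 28 UMIs in cluster 0 and from 4 to 25 UMIs in cluster 1. In the annotation Igf2 overlaps the gene Gm49394 on the same strand along nearly its whole length. Gm49394 was not in the count table, and how reads in the shared stretch were counted is not given in the sources used here.

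**Figure D2:**
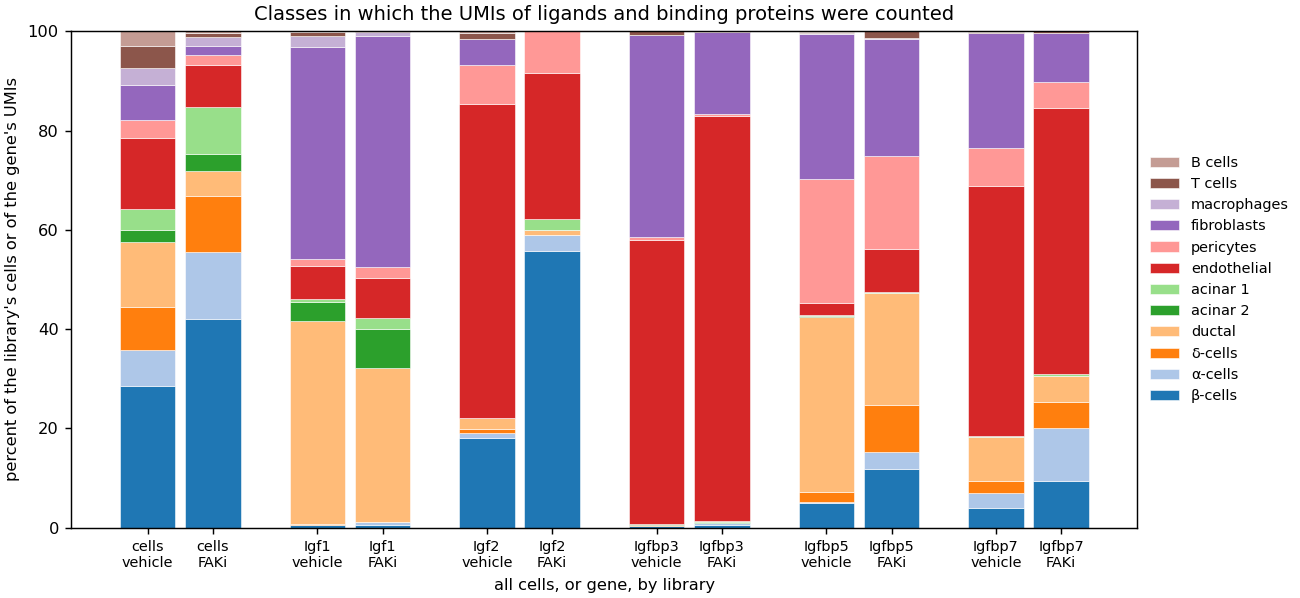
Share of each library's cells (first pair of bars) and of the UMIs of each ligand and binding protein (other pairs) that lay in each annotated class, in percent, for the vehicle (left bar) and FAKi (right bar) library. β-cells made up a larger part of the FAKi cells, and endothelial cells, fibroblasts and pericytes together held 98.7% of vehicle and 98.6% of FAKi Igfbp3 UMIs.

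The 3 binding proteins had different sources. Igfbp3 encodes the main IGF carrier of serum. It stood at 1534 CPM (1486–1584) in vehicle and 840 CPM (767–918) in FAKi fibroblasts, and at 1436 CPM (1398–1475) and 1628 CPM (1564–1694) in endothelial cells. The next class, pericytes, had 86.1 and 48.3 CPM. Within endothelial cells cluster 3 carried it: 2174 CPM against 140 CPM in cluster 11 in the vehicle library, and 1887 against 398 CPM in the FAKi library. Endothelial cells, fibroblasts and pericytes together held 98.7% of vehicle and 98.6% of FAKi Igfbp3 UMIs while making up 25% and 12.4% of the cells. The 60 Igfbp3 UMIs of the vehicle T cells came almost wholly from 1 cell, which held 57.

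Igfbp5, which binds IGFs in the matrix, was led by pericytes, with 1352 CPM (1271–1437) in the vehicle and 882 CPM (769–1007) in the FAKi library. Fibroblasts followed with 481 and 474 CPM and ductal cells with 234 and 122 CPM. Among endocrine cells its level was highest in cluster 6 of the δ-cells, the somatostatin cluster, at 33.0 CPM in the vehicle and 40.4 CPM in the FAKi library. Cluster 8, annotated as δ-cells but led by Ppy, had 0.846 and 2.04 CPM. β-cell clusters had 3.49 to 6.89 CPM.

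Igfbp7 was highest in endothelial cells, at 7939 CPM (7849–8029) and 9729 CPM (9572–9888). Pericytes (5928 and 5655 CPM) and fibroblasts (5458 and 4568 CPM) came next. With each cell thinned to 1000 UMIs, 97.3% of vehicle fibroblasts, 97.8% of vehicle pericytes and 87.4% of vehicle endothelial cells still held an Igfbp7 UMI. The thinned share was 51.5% in vehicle ductal cells, 33.5% in α-cells, 26.7% in δ-cells and 8.37% in β-cells. Macrophages and B cells, taken as a gauge of free RNA, had 5.98% and 2.7%, below the shares of α-, δ- and ductal cells. These gauge classes were ones with low levels of the gene, so higher shares elsewhere were partly set by that choice. In the vehicle library 3 cells held 61.2% of the 67 macrophage UMIs, and 3 cells held 62.2% of the 45 B-cell UMIs. The gauge may therefore not reflect evenly spread free RNA. The thinned β-cell share is diluted by insulin transcripts, and without the 20 most abundant genes the Igfbp7 level of vehicle β-cells was 200 CPM (192–208) against 68.2 CPM (52.8–86.6) in macrophages and 79.3 CPM (57.9–106) in B cells. Without thinning the shares were 93.4% of vehicle α-cells and 72.1% of vehicle β-cells at median depths of 13126 and 30792.5 UMIs, against 10.9% of macrophages at 7423 UMIs. Within the β-cells cluster 10 had the most, 161 and 153 CPM against 57.7 and 54.9 CPM in cluster 0. Called doublets made up 12 of its 121 vehicle and 18 of its 115 FAKi cells and none of cluster 0, and without them its levels were 153 and 152 CPM. The 3′ end of Igfbp7 overlaps Polr2b on the opposite strand.

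The receptors were spread more evenly over the classes. By CPM of all UMIs, Igf1r was highest in ductal cells, at 128 CPM (119–137) in vehicle and 154 CPM (138–172) in FAKi cells. The vehicle intervals of ductal cells and fibroblasts (106 CPM, 94.1–120) overlapped, whereas in the FAKi library ductal cells stood apart from fibroblasts (80.4 CPM, 59.1–107). In the endocrine cells the δ-cell cluster 6 had 125 CPM in the vehicle and 112 CPM in the FAKi library, β-cell cluster 0 had 73.1 and 72.6 CPM, and α-cells had 31.7 and 29.5 CPM. That order depended on the scaling, since Ins1 and Ins2 alone made up 162182 and 401354 CPM of vehicle cluster 0. Without the 20 most abundant genes, β-cells led all classes, at 195 CPM (187–203) in vehicle and 196 CPM (188–204) in FAKi cells. Ductal cells then had 144 CPM (134–154) and 178 CPM (160–198), with overlapping intervals in the FAKi library. On the same scale β-cell cluster 0 had 210 CPM (200–220.03) and 214 CPM (204–224), and δ-cell cluster 6 had 187 CPM (166–210.05) and 170 CPM (151–190.1). The Ppy-led cluster 8 had 26.7 and 26.2 CPM, and its ratio to cluster 6 in the vehicle library was 0.213 (0.16–0.281).

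Insr, the insulin receptor, was highest in endothelial cells in both libraries, at 117 CPM (106–129) and 120 CPM (103–139). Ductal cells had 41.3 and 53.9 CPM, and no other class reached 30 CPM. β-cell clusters had 10.7 to 21.2 CPM. The δ-cell cluster 6 had 38.6 and 38.5 CPM, and α-cells 22.2 and 24.3 CPM. Without the 20 most abundant genes endothelial cells still led, at 135 and 143 CPM, but in the vehicle library ductal cells (46.4 CPM), δ-cells (46.3), β-cells (39.7) and α-cells (38.4) had levels with overlapping intervals.

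Igf2r was at 88.7 CPM (68.8–112) in vehicle pericytes, 80.1 CPM (71.3–89.7) in endothelial cells and 75.1 CPM (64.7–86.5) in fibroblasts, with overlapping intervals. FAKi pericytes had 105 CPM (68.4–153), from 26 UMIs. β-cells had 19.9 and 22 CPM, or 56.3 and 64.1 CPM without the 20 most abundant genes. Airn, a noncoding RNA read from the opposite strand of Igf2r, was also in the table with 1501 UMIs, and the counts cannot show whether reads of this pair were split correctly.

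Irs1 and Irs2 were highest in different cells. Irs1 was low, 220 vehicle and 184 FAKi UMIs in all, and its highest CPM were in pericytes (26.1 and 32.2) and fibroblasts (22.2 and 18.8), an order that turned round with cells thinned to 1000 UMIs. Among the other classes with 30 cells or more none passed 5 CPM of all UMIs. With the most abundant genes left out of the totals, β-cells had 7.98 and 9.51 CPM of Irs1 and vehicle α-cells 6.85 CPM. Pericytes (30.3 and 38.4 CPM) and fibroblasts (26.1 and 24.3 CPM) were still higher. Irs2 was highest in α-cells, at 195 CPM (181–210) in vehicle and 167 CPM (157–178) in FAKi cells. Vehicle B cells (140 CPM, 113–173) overlapped δ-cells (115 CPM, 106–125), and ductal cells had 96.0 and 94.4 CPM. β-cells had 57.6 and 25.8 CPM. With the most abundant genes left out of the totals α-cells still led, at 338 and 279 CPM. Vehicle β-cells then had 163 CPM (156–170), above vehicle ductal cells (108 CPM, 99.4–117). FAKi β-cells had 75.4 CPM (70.8–80.2), below FAKi ductal cells (109 CPM, 94.6–125). Endothelial cells had a UMI of Irs2 in 4.24% of vehicle and 1.49% of FAKi cells. Thinned to 1000 UMIs, 16.9% of vehicle α-cells held an Irs2 UMI against 0.377% of vehicle endothelial cells. That class, where Irs2 was low, was taken here as the gauge of free RNA.

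Differences between the libraries were read for each pair of a gene and a class with at least 100 UMIs over both libraries and at least 30 cells in each, and a pair was counted when the CPM ratio passed 1.5-fold. Of 120 pairs, 45 met the limits. In the FAKi library 1 pair was higher and 9 were lower, which is 2.22% and 20% of the 45. The 9 were Irs2 and Igfbp5 in β-cells, Igfbp5 in ductal cells and pericytes, Igf2 and Igf2r in endothelial cells, Irs2 and Igfbp3 in fibroblasts, and Igf1 in the acinar class 2_Acinar_cells. Over all genes and classes under the same limits, 2.74% of 50890 pairs were higher and 4.86% were lower. The remaining 35 pairs lay within 1.5-fold. By gene, Igf1r (6 pairs), Insr (5), Igfbp7 (8) and Irs1 (1) had no pair past the limit. With β-cells and δ-cells taken by cluster, 57 pairs met the limits, 1 higher and 11 lower, against 2.59% higher and 4.39% lower of the 66045 such pairs over all genes.

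**Figure D3:**
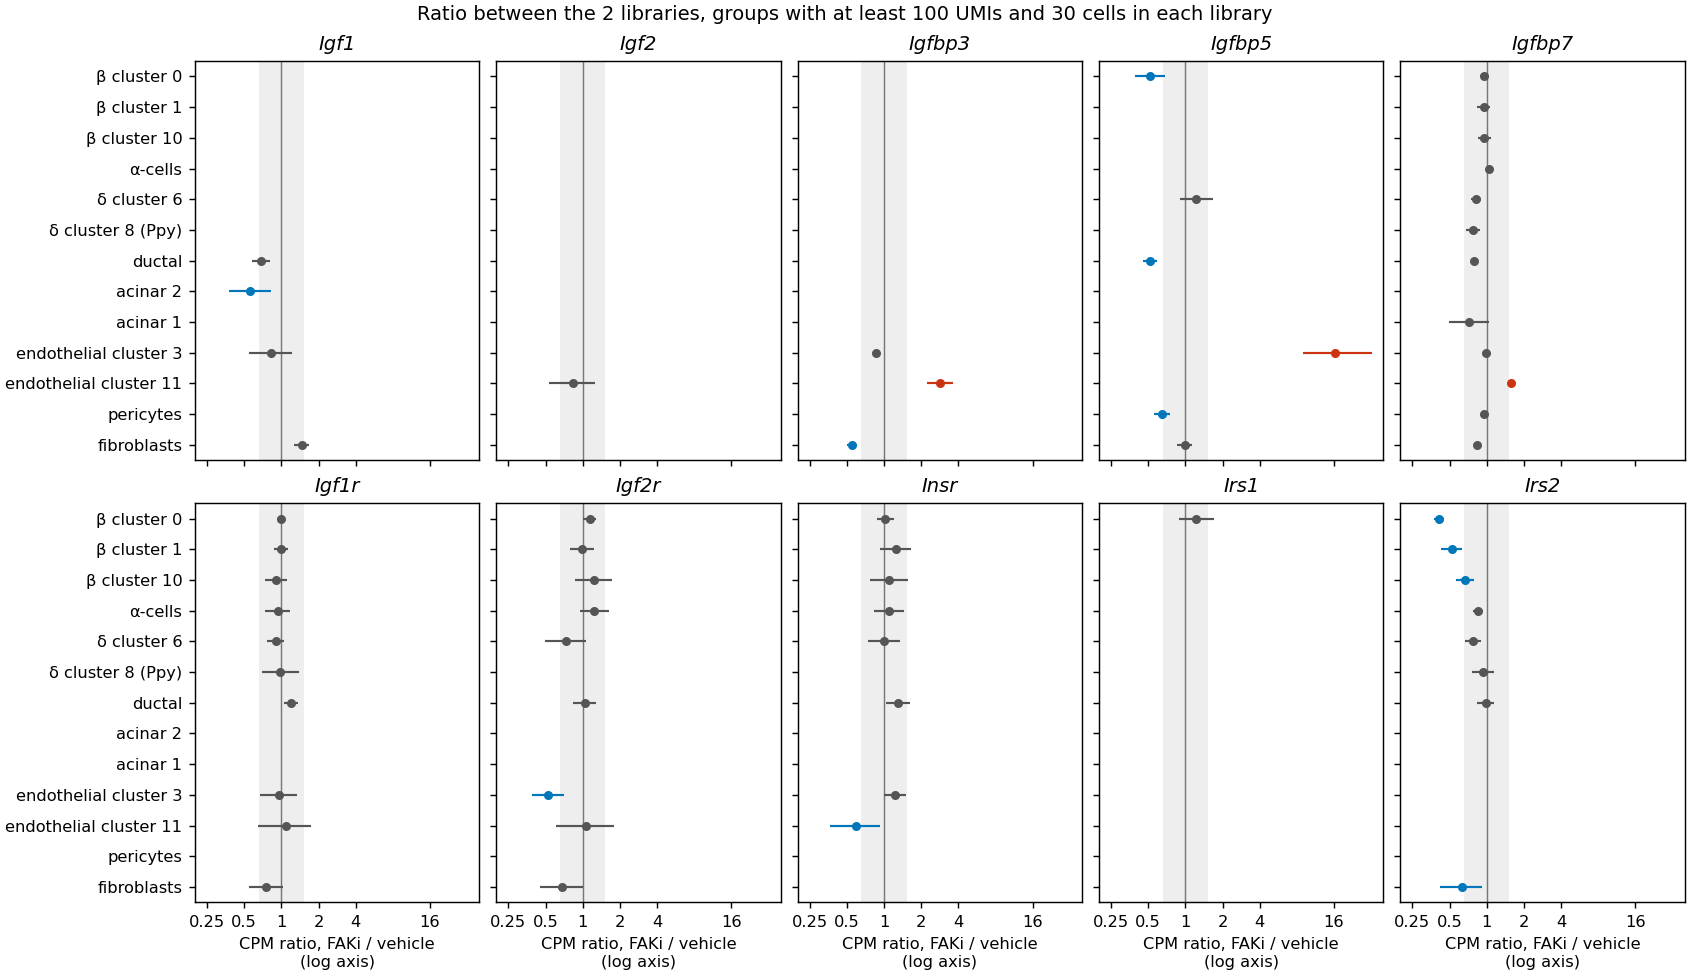
Ratio of CPM in the FAKi to the vehicle library (log axis) with exact 95% intervals for counting error, for the 10 genes in groups of cells that met both limits. The grey band spans 1.5-fold either way, with red points above and blue points below it. Irs2 lies below the band in all 3 β-cell clusters, whereas Igf1r, Igf2r and Insr lie inside it there.

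In β-cells, Irs2 was lower in the FAKi library in all 3 clusters. Over the whole class, with 57.6 and 25.8 CPM, the ratio of FAKi to vehicle was 0.448 (0.415–0.484), and 3.1% of all genes were lower there and 1.21% higher. In cluster 0, the largest, with 650 vehicle and 675 FAKi cells, it was at 58.2 CPM (1318 UMIs) in the vehicle and 23.9 CPM (582 UMIs) in the FAKi library. The ratio of FAKi to vehicle was 0.410 (95% interval 0.372–0.453), and in that cluster 3.21% of 10300 genes were lower and 1.35% higher. In cluster 1 the levels were 33.5 and 17.4 CPM, a ratio of 0.519 (0.427–0.63), where 2.9% of genes were lower and 1.57% higher. In cluster 10, led by Rgs16 and Ddit3 among others, they were 105 and 69.7 CPM, a ratio of 0.665 (0.56–0.789), where 2.6% of genes were lower and 1.75% higher. That ratio lay at the limit and was 0.704 without called doublets (droplets that resemble joined cells), 0.698 when CPM was averaged cell by cell and 0.674 with median-of-ratios scaling. In none of the 3 clusters did the Poisson intervals of the libraries overlap.

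The difference was spread over many β-cells. An Irs2 UMI was present in 66% of vehicle and 42.7% of FAKi cells of cluster 0. Cells with 3 or more UMIs made up 28.3% (24.9–31.9) of vehicle and 10.2% (8.04–12.8) of FAKi cells there. Thinned to 10000 UMIs a cell, which left out 10 vehicle and 1 FAKi cells, the shares with a UMI were 37.7% (33.9–41.5) and 19.0% (16.1–22.2). In cluster 1 the thinned shares were 25.4% (19.9–31.6) and 17.1% (13.4–21.3), whose intervals overlap, after 77 vehicle and 177 FAKi cells were left out. In cluster 10 they were 60.4% (50.2–70) and 40% (30.3–50.3), with intervals that overlap slightly.

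The 3 receptors lay within 1.5-fold in β-cells. In cluster 0, Igf1r was at 73.1 and 72.6 CPM, a ratio of 0.994 (0.929–1.06). Insr was at 14.3 and 14.7 CPM there, a ratio of 1.03 (0.881–1.2). Igf2r was at 20.1 and 22.9 CPM, a ratio of 1.14 (1.01–1.29), and Irs1 at 2.91 and 3.57 CPM, a ratio of 1.23 (0.88–1.71). In clusters 1 and 10 their ratios ran from 0.902 for Igf1r in cluster 10 to 1.24 for Insr in cluster 1, all within 1.5-fold.

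**Figure D4:**
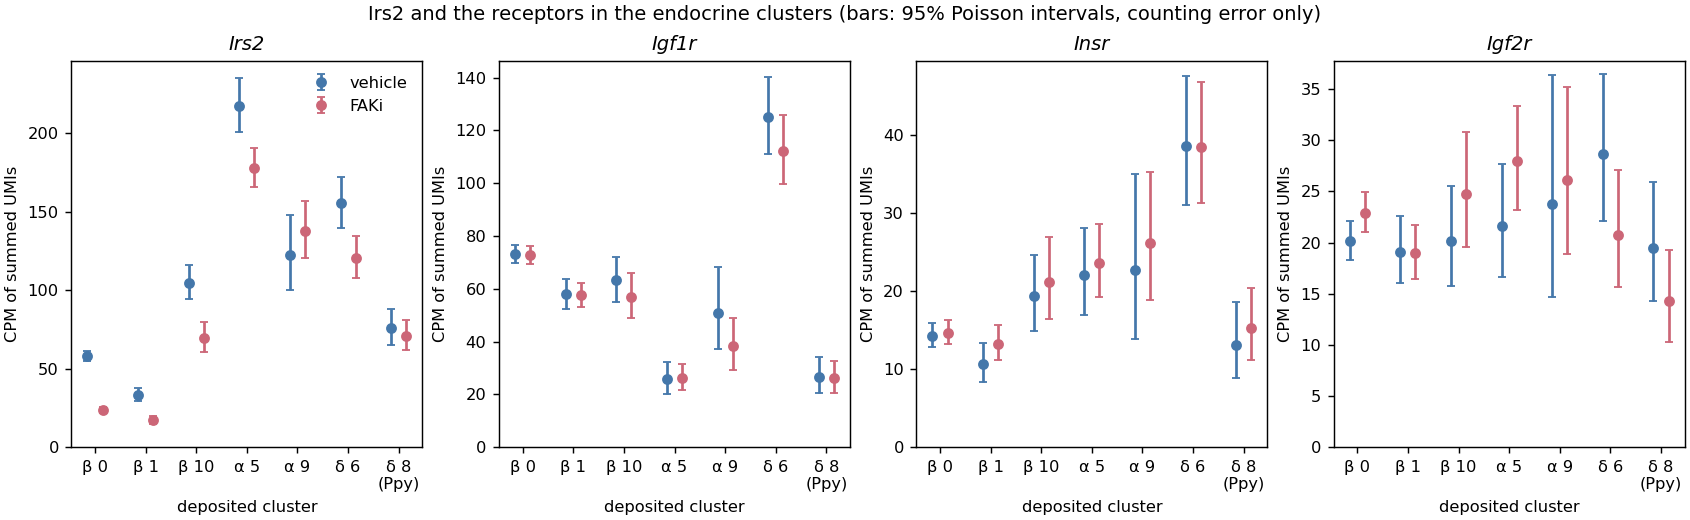
CPM of Irs2, Igf1r, Insr and Igf2r in the deposited endocrine clusters of the vehicle (blue) and FAKi (red) library, with 95% Poisson intervals for counting error. The Irs2 intervals of the 2 libraries are apart in all 3 β-cell clusters, and the Igf1r and Insr intervals overlap in every cluster shown.

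Irs2 was less different in the other endocrine cells. In α-cells the ratio was 0.855 (0.777–0.941). It was 0.818 in α-cell cluster 5 and 1.13 in cluster 9. In δ-cell cluster 6 the levels were 155 and 121 CPM, a ratio of 0.776 (0.665–0.905), and in the Ppy-led cluster 8 they were 76.2 and 71 CPM, a ratio of 0.933 (0.76–1.14), which was 0.605 when CPM was averaged cell by cell. The interval of β-cell cluster 0 lay wholly below those of the α- and δ-cell clusters, whereas that of cluster 10 overlapped those of α-cell cluster 5 and both δ-cell clusters. Whether the change differs between cell types could not be tested with 1 library each. Outside the endocrine cells, Irs2 was at 96.0 and 94.4 CPM in ductal cells, a ratio of 0.983 (0.835–1.15). In fibroblasts it was at 84.6 and 53 CPM, a ratio of 0.627 (0.416–0.917) from 213 and 31 UMIs, in a class where 12.3% of genes were lower. That ratio was 0.69 without the 20 most abundant genes and 0.675 with median-of-ratios scaling. Under the limit of 100 UMIs, endothelial cells had 44 vehicle and 4 FAKi UMIs of Irs2, a ratio of 0.229 (0.0597–0.628). The 44 UMIs lay in 23 of 543 cells. This class was taken above as the gauge of free RNA, so its counts cannot be read as Irs2 made by endothelial cells. Macrophages, also under the limit, had 73 and 16 UMIs, a ratio of 0.517 (0.281–0.897), and the 73 lay in 30 of 129 cells. Among classes that met the limit, only β-cells and fibroblasts had Irs2 past 1.5-fold lower.

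Genes of the immediate early response, which are switched on within minutes by stimuli including cell dissociation, differed between the libraries in several classes. Of 13 such genes, 0 were higher and 5 lower in β-cell cluster 0 (Fos, Fosb, Atf3, Nr4a1 and Zfp36), with a median ratio of 0.737, where 3.21% of all genes were lower. The same 5 of 13 were lower in cluster 1, with a median ratio of 0.69 (2.9% of all genes), and 1 (Zfp36) was lower in cluster 10, with a median of 0.966 (2.6%). Outside β-cells, 6 of 13 were lower in endothelial cells (median 0.705, where 6.66% of all genes were lower) and 6 of 13 in pericytes (0.672, 7.89%), with none higher in either. Ductal cells had 3 of 13 lower (4.83%), macrophages 1 of 13 (12.3%) and the class Acinar_cells_1 4 of 10 (8.38%), with none higher. Fibroblasts had 3 of 13 lower (12.3%) and 1 higher (Atf3, 4.25%). δ-cells as a whole class, clusters 6 and 8 together, had 2 lower (2.55%) and 2 higher (Jun and Atf3, 1.33%), with a median ratio of 1.15. The class 2_Acinar_cells had 2 of 11 higher (Jun and Ier2, 8.21%) and none lower, with a median of 1.41. In α-cells 3 were higher and 1 was lower, where 3.18% and 1.59% of all genes were. Their part in the Irs2 values was not tested, and the list was added after the Irs2 values had been seen.

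Igfbp5 in β-cell cluster 0 was at 6.89 CPM (156 UMIs) in the vehicle and 3.57 CPM (87 UMIs) in the FAKi library, a ratio of 0.518 (0.394–0.678). Clusters 1 and 10 were under the limit of 100 UMIs, with ratios of 0.785 (0.481–1.29) from 33 and 39 UMIs and 0.794 (0.33–1.85) from 15 and 11 UMIs, whose intervals hold 1. In cluster 0 it was spread thinly, with a UMI in 99 of 650 vehicle and 63 of 675 FAKi cells. With cells thinned to 1000 UMIs the shares were 1.38% (0.635–2.61) and 0.444% (0.0917–1.29), and 0 of 117 vehicle macrophages held one (0–3.1%). Macrophages had 3.33 and 3.93 CPM and vehicle B cells 11 CPM, so on this scale the level in cluster 0 lay within the range of the classes taken as a gauge of free RNA. Without the 20 most abundant genes it was 19.8 CPM (16.8–23.1) and 10.5 CPM (8.43–13), against 4.07 CPM (1.11–10.4) and 4.91 CPM (0.595–17.7) in macrophages and 12.3 CPM (4.96–25.4) in vehicle B cells, whose interval overlaps those of cluster 0. Whether it stands above free RNA therefore depends on the scaling. In ductal cells Igfbp5 went from 234 to 122 CPM, a ratio of 0.520 (0.455–0.593), where 4.83% of genes were lower. There 9 of 156 FAKi cells held 50% or more of the 265 UMIs. In pericytes the ratio was 0.652 (0.561–0.755), where 7.89% of genes were lower, and it was 0.682 without called doublets and 0.669 without the 20 most abundant genes. The 6 marker genes of the pericyte class also summed to less in the FAKi library, 10874 against 15553 CPM. In fibroblasts the Igfbp5 ratio was 0.985 (0.861–1.12), and in δ-cell cluster 6 it was 1.23 (0.904–1.67). α-cells, under the limit, had 11 vehicle and 40 FAKi UMIs, a ratio of 2.29 (1.15–4.96).

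Among pairs that met the limit, Igfbp5 in endothelial cells was the only one past 1.5-fold higher, at 27.5 CPM in vehicle and 67.2 CPM in FAKi cells, a ratio of 2.44 (1.84–3.25). In that class 2.53% of genes were higher and 6.66% lower. The clusters went opposite ways. Cluster 3 had 12 vehicle and 101 FAKi UMIs, a ratio of 16.3 (8.95–32.7), in a cluster where 1.68% of genes were higher. Cluster 11 had 92 UMIs in 172 vehicle cells and 0 UMIs in 40 FAKi cells. These counts came from few cells: the top 3 cells held 69.2% of the vehicle and 77.2% of the FAKi UMIs of the class. A UMI was present in 14 of 543 vehicle and 11 of 269 FAKi endothelial cells, and 46 of the 92 UMIs of vehicle cluster 11 lay in 1 cell.

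The remaining endothelial differences followed the clusters too. Igf2 was at 44.7 and 18.6 CPM in the class, a ratio of 0.417 (0.269–0.625), but in cluster 11, its source, the ratio was 0.839 (0.537–1.26). Cluster 11 made up 172 of 543 vehicle and 40 of 269 FAKi endothelial cells. The uptake receptor Igf2r was at 80.1 and 50.6 CPM in the class, a ratio of 0.631 (0.484–0.814). In cluster 3 it was at 88.8 and 46.7 CPM, a ratio of 0.526 (0.387–0.706), where 4.27% of genes were lower, and in cluster 11 the ratio was 1.06 (0.602–1.78). Cluster 11 showed 3 further genes past the limit, in a cluster where 7.54% of genes were higher and 8.2% lower. Igfbp3 went from 140 to 398 CPM there, a ratio of 2.85 (2.22–3.63), with 4 of 172 vehicle cells holding 50% or more of the 192 UMIs and 4 of 40 FAKi cells 50% or more of the 104. Igfbp7 went from 2493 to 3943 CPM, a ratio of 1.58 (1.47–1.7), which was 1.47 without insulin-rich droplets (those of classes neither endocrine nor acinar with over 10% of UMIs from Ins1 and Ins2). Insr went from 142 to 84.2 CPM, a ratio of 0.593 (0.363–0.923). In cluster 3 these genes had ratios of 0.868, 0.992 and 1.24, all within 1.5-fold.

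Fibroblasts had less Igfbp3 in the FAKi library, 840 against 1534 CPM, a ratio of 0.547 (0.497–0.602). The FAKi value rested on 63 cells, of which 5 held 50% or more of the 491 UMIs. The 6 marker genes of this class also summed to less in the FAKi library, 16732 against 25077 CPM. Whether the 2 differences are related was not tested. The median over all genes tested in fibroblasts was -0.11 on the log2 scale, the one class where it passed 0.1. Igf1 in the same cells had a ratio of 1.47 (1.27–1.68), just inside the limit, which became 1.69 without insulin-rich droplets, and 4 FAKi cells held 50% or more of its 271 UMIs. In the acinar class 2_Acinar_cells Igf1 was at 54.3 and 30.5 CPM, a ratio of 0.562 (0.379–0.826) from 70 and 46 UMIs, where 3.47% of genes were lower, and it was 0.72 in cells with at least 1000 detected genes. In ductal cells its ratio was 0.682 (0.577–0.803), just inside the limit, and 0.656 when CPM was averaged cell by cell.

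Insulin transcripts, which free RNA of broken β-cells carries into other droplets, were measured in the same classes. Ins2 was higher in the FAKi library in ductal cells (2.23-fold, where 3.34% of genes were higher), fibroblasts (2-fold, 4.25%), pericytes (1.59-fold, 5.34%) and endothelial cells (1.51-fold), and within 1.5-fold in α-cells (1.39-fold) and macrophages (1.07-fold). In δ-cells it went the other way, from 8020 to 4999 CPM, a ratio of 0.623 (0.614–0.633), where 2.55% of genes were lower, and Ins1 had a ratio of 0.544 there. In β-cell clusters 0, 1 and 10 the ratios of Ins2 were 1.02, 1.04 and 0.987, and those of Ins1 were 0.985, 0.977 and 0.98. The 8 β-cell markers, all of them detected, summed to 54623 CPM in vehicle and 80453 CPM in FAKi endothelial cells. They summed to 66904 and 133218 CPM in fibroblasts, and to 157694 and 252374 CPM in the class Acinar_cells_1. The 7 acinar markers went from 2073 to 9990 CPM in fibroblasts and from 4073 to 9787 CPM in pericytes. In endothelial cells they went from 2331 to 4345 CPM and in macrophages from 2180 to 13696 CPM. The part of free RNA or joined cells in the differences of those classes was not tested.

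Of 48 other genes of the pathway, 46 were in the table. In β-cell cluster 0, 36 of them met the UMI limit, and 0 were higher and 1 lower, no larger a share than the 3.21% of all genes that were lower there. The 1 gene was Pappa2, whose protease frees IGFs by cutting binding proteins, at 7.68 and 4.39 CPM, a ratio of 0.572 (0.445–0.731). In cluster 1 it was at 9.15 and 5.07 CPM, a ratio of 0.554 (0.38–0.804). Ductal cells had 9.60 and 5.06 CPM and vehicle pericytes 15.6 CPM, so on this scale the levels in clusters 0 and 1 lay within the range of the non-endocrine classes. Without the 20 most abundant genes, vehicle clusters 0 and 1 had 22.03 CPM (18.9–25.6) and 26.2 CPM (20.3–33.3), against 10.8 CPM (8.23–13.9) in ductal cells and 18.2 CPM (9.4–31.8) in pericytes. In cluster 10 Pappa2 was at 49.5 and 32.3 CPM, a ratio of 0.654 (0.506–0.84). Without the called doublets of that cluster it was at 47.7 CPM (144 UMIs) and 14.8 CPM (38 UMIs), a ratio of 0.311 (0.211–0.447). The other gene lower in cluster 1, making 2 of 35 where 2.9% of all genes were lower, was Ide (0.664), the insulin-degrading enzyme. In cluster 10, 5 of 30 were lower, where 2.6% of all genes were: Pappa2, Ide (0.612), Shc1 (0.664), Akt1 (0.654) and Foxo3 (0.611). Among the classes Pappa2 was highest in α-cells, at 572 and 434 CPM, a ratio of 0.76 (0.718–0.805). In δ-cell cluster 6 it went from 62.04 to 30.03 CPM, a ratio of 0.484 (0.363–0.642), and in the Ppy-led cluster 8 the ratio was 1.07 (0.971–1.18).

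In β-cells as a whole 1 of 39 was higher, Igf2bp3 (2.15, 1.4–3.38), and 1 lower, Pappa2 (0.56, 0.478–0.655), where 1.21% and 3.1% of all genes were. In α-cells 3 of 36 pathway genes were higher and 1 lower, where 3.18% of all genes were higher and 1.59% lower. Among those higher, Igf2bp3, which encodes an RNA-binding protein of fetal tissue, went from 19 to 88 UMIs there, a ratio of 2.92 (1.76–5.08). The exchange factor Sos1 had a ratio of 1.5 (1.13–2.02) and the mTORC1 restrainer Tsc2 one of 0.642 (0.489–0.843). In endothelial cells 2 of 28 were higher, Ins2 and the regulatory kinase subunit Pik3r3 (1.72, 1.32–2.23), and 3 were lower, where 2.53% and 6.66% of all genes were. The 3 were the binding protein Igfbp4, at 519 and 297 CPM (0.573, 0.516–0.635), the protease Htra1 (0.563, 0.404–0.77) and Tsc2 (0.498, 0.282–0.832).

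The genes with patterns most like these 10 were sought over 22 points, each a class in a library, among 10721 genes with at least 500 UMIs. Pearson's r of log2(CPM + 1) is a description here, since points of 1 library share its preparation. Igfbp7 was most like Kctd17 (r = 0.968), Cdr2l (0.96) and the laminin gene Lamc1 (0.959). Igfbp3 was most like Slc43a3 (0.961), the collagen gene Col15a1 (0.953) and Itm2a (0.949). Igfbp5 was most like Cdc42ep5 (0.931), Gucy1a1 (0.929) and Ryk (0.927). Among receptors, Insr was most like Jup (0.951), Dock9 (0.909) and Ctnnb1 (0.906), Igf2r like Tgfbr3 (0.941), Mosmo (0.932) and Atg9a (0.929), and Igf1r like Trpm4 (0.93), Tbc1d19 (0.929) and Dgcr6 (0.9). The likeness was looser for Igf1, with Gstm2 (0.883), Ppib (0.882) and Eif4ebp1 (0.868), and for Irs2, with Foxp4 (0.878), Prxl2a (0.85) and Usp11 (0.829).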

How the data were processed

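Dissociated islets of vehicle- and FAKi-treated mice were run on the 10x Chromium 3′ v3.1 kit. Per the submitters' processing notes, reads were aligned to mm10 with Cell Ranger and handled in Seurat (version 3.1). The study's methods describe a limit of 8% mitochondrial RNA, scran scaling, scanorama integration and Louvain clustering before annotation. The authors deposited unnormalized UMI counts per gene and cell, with a library, cluster and class for each cell and the percent of mitochondrial UMIs computed in Seurat, and these counts were used as deposited. Each cell's summed counts equalled the deposited total, and 0 columns of cells lacked a sample. The lanes of a library are not separated in the table.

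UMIs were summed per class and library and divided by the summed total (CPM). Intervals (95%) were exact Poisson for a level, exact conditional binomial for a ratio and Clopper-Pearson for a share of cells, computed with scipy 1.17.1. They cover counting error only. With 1 library a treatment there was no test and no p-value. Where a limit is given for a level from 0 UMIs, it is the upper end of the exact Poisson interval. Ratios were reported from 20 UMIs and counted past 1.5-fold from 100 UMIs over both libraries and 30 cells in each. Intervals and calls were tested on simulated counts. Doublets were called with scrublet in scanpy 1.11.5, at 1.8% of vehicle and 1.79% of FAKi cells, and kept except in an alternative. Gene positions came from GENCODE M21 (GRCm38).

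The 10 genes are described in every class. Of other pathway genes, those past 1.5-fold in α-, β- or endothelial cells and Ins1 and Ins2 are named, except 1 gene counted in α-cells that is not reported here. Those past it in single β-cell clusters were named after their values were seen. The 3 most similar genes are named for each of the 10 with at least 500 UMIs. The genes, lists and limits were chosen with earlier results of these data known. Values by cluster, thinning to 10000 UMIs, the immediate early list and the alternatives for Pappa2 were added after seeing the data.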

Additional observations from a re-analysis of the deposited data

Results flagged for a closer look

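Igfbp5 drew attention because its direction differed between classes: the FAKi over vehicle ratio was 2.44 in endothelial cells, whereas it was 0.582 in β-cells as a whole (0.518 in cluster 0), 0.52 in ductal cells and 0.652 in pericytes. It was 2.29 in α-cells, from 11 and 40 UMIs. The difference between the classes was not tested, since each class had 1 library a treatment. Without the cell holding the most Igfbp5 UMIs in each class and library, the endothelial ratio was 2.78. Across all the alternatives tried it lay between 2.44 and 5.03, and in cluster 3 alone between 16.3 and 40.5. Cluster 11 went the other way, from 92 vehicle to 0 FAKi UMIs. The endothelial UMIs lay in 14 of 543 vehicle and 11 of 269 FAKi cells, and the top 3 cells held 69.2% and 77.2% of them. Leaving out 1 cell a library therefore cannot show whether the ratio holds without those few cells.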

How the results depend on the processing

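No paired analysis was possible because the numbers in the labels are sequencing lanes, which the count table does not separate, and for the same reason no replicate could be left out. The class of highest level was the same in both libraries for 8 or 9 of the 10 genes under the 7 alternatives that gave it, but the class itself changed for 3 genes. Igf1r moved from ductal to β-cells in both libraries without the 20 most abundant genes, and Irs1 from pericytes to fibroblasts in both with thinned cells. Igfbp3 in the vehicle library moved from fibroblasts to endothelial cells with thinned cells and when CPM was averaged cell by cell. The count of pairs higher in the FAKi library was 1 and became 2 without the 20 most abundant genes, with median-of-ratios scaling, without called doublets and without insulin-rich droplets, the second pair being Igf1 in fibroblasts each time. It was 0 with cells thinned to 1000 UMIs, where 16 pairs met the limit, and 3 with a limit of 20 UMIs. The count of lower pairs was 9 and lay between 7 and 11 under the others, except for 1 with thinned cells and 19 with a limit of 20 UMIs. With thinned cells fewer pairs met the limit, and 1 of 16 was lower against 9 of 45 with all UMIs. What lowered the thinned counts was not tested. Of the values of single pairs under an alternative, 585 stayed inside the 95% interval of the reported value, 92 moved outside it and 0 called values changed direction. Of those 92, 57 came with thinned cells. The Irs2 ratio in β-cell cluster 0 lay between 0.391 and 0.521, in cluster 1 between 0.265 and 0.543 and in cluster 10 between 0.382 and 0.704 under all alternatives. Classes with few FAKi cells (fibroblasts, pericytes and macrophages, 55 to 64 cells) limit what can be said of genes at low level there.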
